A study of Rattus norvegicus with 9 samples.

Results

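The transcripts described here are 5 genes that mark tissue lying against the hippocampus: Ttr, for the choroid plexus, and Igf2, Col1a1, Col1a2 and Col3a1, for the meninges and other connective tissue. They were chosen by Ensembl identifier from a fixed list, and make up 5 of the 32545 gene identifiers counted in each library. Poly(A) RNA came from dorsal hippocampi of male rats of the outbred Sprague-Dawley stock, aged 8 weeks, and was sequenced. The groups were 4 rats with control rearing and 5 rats with early-life adversity (ELA), and none of these animals had taken part in behavioural tests. The labels do not say how adversity was produced, which rats shared a litter, or how the hippocampi were dissected. Every library comes from a different animal.

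The choroid plexus is a sheet of secretory epithelium in the brain ventricles that makes cerebrospinal fluid. Its epithelial cells make transthyretin (Ttr), a carrier of thyroid hormone and of the retinol-binding protein, in very large amounts. The meninges are the fibrous membranes around the brain, and their fibroblasts make the fibrillar collagens. Insulin-like growth factor 2 (Igf2) is an imprinted growth factor whose brain sources include the choroid plexus as well as the meninges. Both tissues touch the hippocampus, along the lateral ventricle and along the hippocampal fissure. In a dissected piece of tissue, more cells of a type and more RNA per cell cannot be told apart, and blood vessels also carry collagen-producing cells.

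In these libraries the transcripts formed 2 patterns, and in both of them control and ELA rats overlapped. Ttr varied from rat to rat in both groups, over a 7.37-fold range. Igf2, Col1a1 and Col3a1 varied by 1.33-fold, 1.57-fold and 1.41-fold over 7 of the 9 rats and were at 1.75 to 2.57 times the median of those 7 in ELA replicates 2 and 5. ELA replicate 2 was the highest library for Ttr, while ELA replicate 5 was the lowest for it. The 2 patterns differed in spread, and in direction the relation of Ttr to the others depended on single libraries. Over all 9 libraries Ttr had r = 0.443 with Igf2, 0.541 with Col1a1 and 0.257 with Col3a1. Without ELA replicate 5, left out after its values had been seen, these were 0.834, 0.863 and 0.801. Without ELA replicate 2 instead, they were -0.113, 0.076 and -0.237. Without both they were 0.731, 0.730 and 0.581. No pair with Ttr passed over the 9 libraries or without both. Col1a2 had no reads in any library. None of the 4 transcripts with reads passed the test between rearing groups.

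Reads assigned to genes ranged from 11049282 to 17089188 per library. The rule kept a gene with a mean of at least 1 CPM (the gene's reads scaled to all reads assigned to genes in that library), and 4 of the 5 members met it. Their reads summed to between 0.00667% and 0.0234% of the gene reads of a library, the highest share being that of ELA replicate 2. CPM values printed below are scaled by TMM, a correction for library composition, unless stated otherwise. Levels of different genes were not compared, since the counts are not scaled by transcript length. The count files hold no gene symbols, so the symbols rest on the list alone. Other markers of choroid plexus epithelium, meningeal fibroblasts, vessels or blood could not be read, and the naming of the tissues was not checked beyond these genes.

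**Figure D1:**
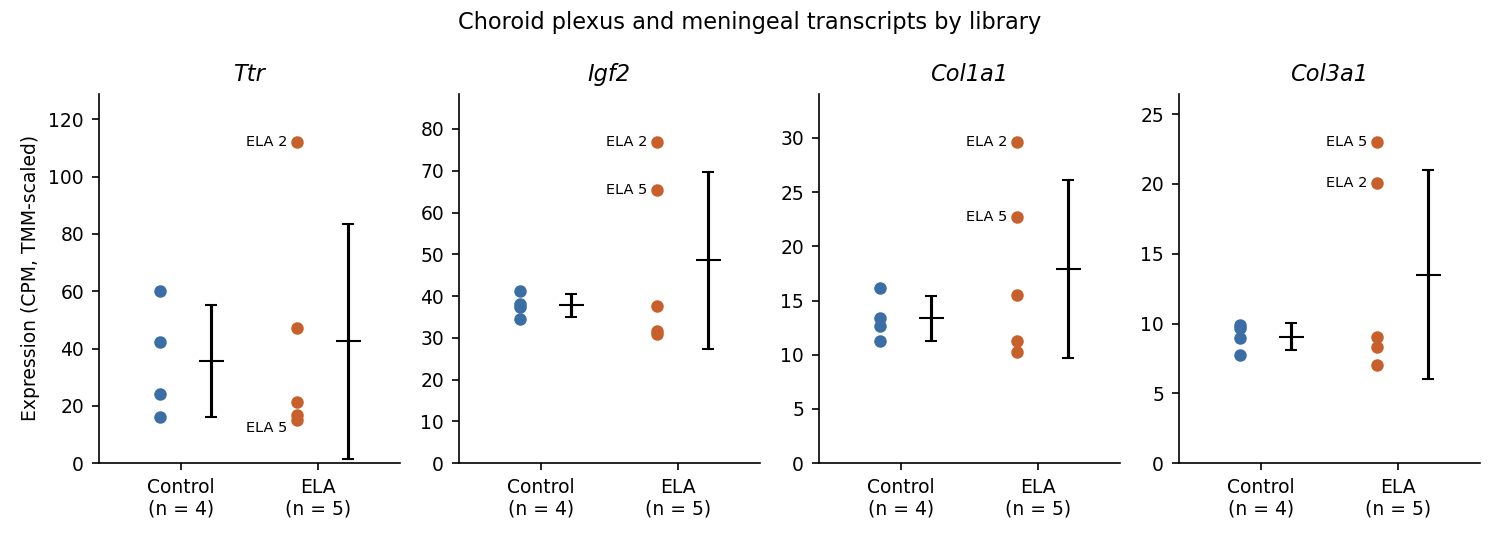
Expression in CPM (vertical axis) of Ttr, Igf2, Col1a1 and Col3a1 in the 4 control and 5 ELA libraries, with 1 point per rat and the group mean and SD as a bar beside the points. ELA replicates 2 and 5 lie above all other rats for Igf2, Col1a1 and Col3a1, while for Ttr they are the highest and the lowest of the 9.

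Ttr (ENSRNOG00000016275) was the most variable of the 4 transcripts. Its level in control replicates 1 to 4 was 24.1, 59.9, 16.1 and 42.2 CPM. In ELA replicates 1 to 5 it was 21.5, 112, 16.7, 47.2 and 15.2 CPM. High and low rats occurred in both groups, and all 4 controls lay inside the range of the ELA rats. The control libraries alone spanned 3.73-fold and the ELA libraries 7.37-fold. Reads for Ttr numbered 183 to 1596 per library, so that counting alone would give a coefficient of variation of 2.5% to 7.39%. The spread between rats was beyond this counting error, with a chi-square per degree of freedom within groups of 378.

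The mean level of Ttr was 35.6 ± 19.6 CPM in control rats and 42.5 ± 41.0 CPM in ELA rats (SD, n = 4 and 5). The fitted difference was 1.20-fold, with a 95% interval from 0.427 to 3.35 that takes in large changes in either direction. The log2 fold change was 0.26, its standard error 0.66 (edgeR quasi-likelihood test, adjusted p = 0.950 over 14463 genes). The sign of this difference depended on ELA replicate 2. Without that library the log2 fold change was -0.52 (edgeR adjusted p = 0.926). The plain difference of mean log2 CPM over all 9 libraries was -0.02 (exact permutation test, two-sided p = 0.968).

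Igf2 (ENSRNOG00000020369) was nearly constant among control rats, at 34.5, 41.1, 37.3 and 38.1 CPM in replicates 1 to 4. In ELA replicates 1 to 5 it was 31.0, 76.9, 31.7, 37.6 and 65.5 CPM. ELA replicates 2 and 5 stood above every other rat, and ELA replicates 1 and 3 stood below every control. The highest control and the lowest differed by 1.19-fold, compared with 2.48-fold among ELA rats. Its mean was 37.8 ± 2.71 CPM in control and 48.6 ± 21.2 CPM in ELA rats (SD, n = 4 and 5). The fitted rearing difference was 1.28-fold (95% interval 0.834 to 1.97). Its log2 fold change of 0.36 had a standard error of 0.28 and did not pass (edgeR adjusted p = 0.774).

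Col1a1 (ENSRNOG00000003897), which encodes the alpha-1 chain of type I collagen, the main fibre of connective tissue, repeated this pattern. The control rats had 11.3, 16.2, 13.4 and 12.7 CPM and the ELA rats 10.3, 29.7, 11.3, 15.5 and 22.7 CPM in order of replicate. ELA replicates 2 and 5 were again the highest, and the other 3 ELA rats lay between 10.3 and 15.5 CPM, against 11.3 to 16.2 CPM in controls. Means were 13.4 ± 2.06 and 17.9 ± 8.19 CPM (SD, n = 4 and 5), a 1.33-fold difference with a 95% interval from 0.826 to 2.14. The log2 fold change of 0.41 had a standard error of 0.31 (edgeR adjusted p = 0.760).

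Col3a1 (ENSRNOG00000003357) encodes the chain of type III collagen, which runs with type I collagen in soft tissues and vessel walls. It was at 7.75, 9.90, 8.95 and 9.65 CPM in control replicates 1 to 4 and at 9.0, 20.1, 7.04, 8.35 and 23.0 CPM in ELA replicates 1 to 5. Here ELA replicate 5 exceeded ELA replicate 2, and no other rat reached 10 CPM. Means were 9.06 ± 0.965 and 13.5 ± 7.46 CPM (SD, n = 4 and 5). The fitted difference of 1.48-fold had a 95% interval from 0.843 to 2.59. On the log2 scale this was 0.56 ± 0.36 (standard error; edgeR adjusted p = 0.698).

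Col1a2 (ENSRNOG00000011292), listed for the alpha-2 chain that joins the product of Col1a1 in type I collagen, had 0 reads in each of the 9 libraries. At these depths a count of 0 allows up to 0.176 to 0.272 CPM in single libraries and 0.0241 CPM over all of them, taking 3 reads as the limit and counting error alone. Col1a1 had 144 to 422 reads in the same libraries. The identifier was 1 of 11224, or 34.49% of all identifiers, without a read in any library. Reads that overlapped more than 1 annotated gene were set aside by the counting and made up 1.57% to 1.80% of the records in a file. Whether reads of Col1a2 were lost this way, or whether the identifier points elsewhere in the annotation used, was not tested.

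None of the 4 tested transcripts was called at an adjusted p under 0.05, against 0.0415% of all genes tested (6 of 14463, edgeR). None had an unadjusted p under 0.05, which 9.4% of genes had, and in none did the groups lie apart, which they did in 3.04% of genes. Each of the 4 was also left uncalled in 20 alternative fits, DESeq2 and limma-voom among them, with unadjusted p-values of at least 0.0564. The median log2 fold change of the 4 was 0.39, compared with 0.00354 over all genes tested. All 4 fitted values were above 0, but they were not separate pieces of evidence, because ELA replicate 2 was the highest or next to highest library for each of these genes. The 95% intervals reach at least 1.97-fold for each gene, so the test does not show that the groups were alike. Over all genes, DESeq2 called 1% and limma-voom with sample weights 2.11%. Without control replicate 1, whose removal raised the number of genes called from 6 to 130, the log2 fold changes were 0.11 for Ttr, 0.32 for Igf2, 0.34 for Col1a1 and 0.50 for Col3a1, none of them called (edgeR adjusted p from 0.663 to 0.974).

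**Figure D2:**
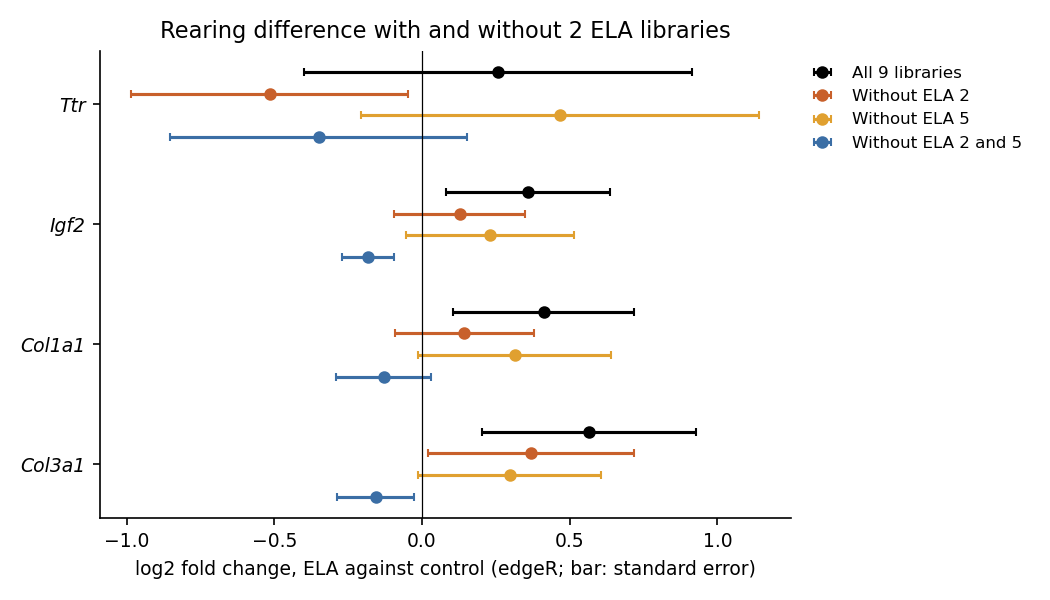
Fitted log2 fold change of ELA against control for each transcript (horizontal axis), with its standard error as a bar, in all 9 libraries and without ELA replicate 2, ELA replicate 5 or both. Values for Igf2, Col1a1 and Col3a1 run from 0.36 to 0.56 with every library and from -0.18 to -0.13 without both. ELA replicates 2 and 5 were the highest libraries for these genes, so some fall was fixed in advance.

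The values for Igf2, Col1a1 and Col3a1 were above 0 with ELA replicates 2 and 5 and below 0 without both. These were the 2 highest libraries for each gene, so leaving them out and no control had to lower the difference. With both left out, a choice made after their values had been seen, the log2 fold change was -0.18 for Igf2 (standard error 0.088), -0.13 for Col1a1 (0.16) and -0.16 for Col3a1 (0.13). The value for Ttr was then -0.35 with a standard error of 0.50. None of these passed either (edgeR adjusted p from 0.648 to 0.923). Leaving out only ELA replicate 2 lowered Igf2 from 0.36 to 0.13 and Col1a1 from 0.41 to 0.14. Leaving out only ELA replicate 5 lowered Igf2 to 0.23 and Col3a1 from 0.56 to 0.30.

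**Figure D3:**
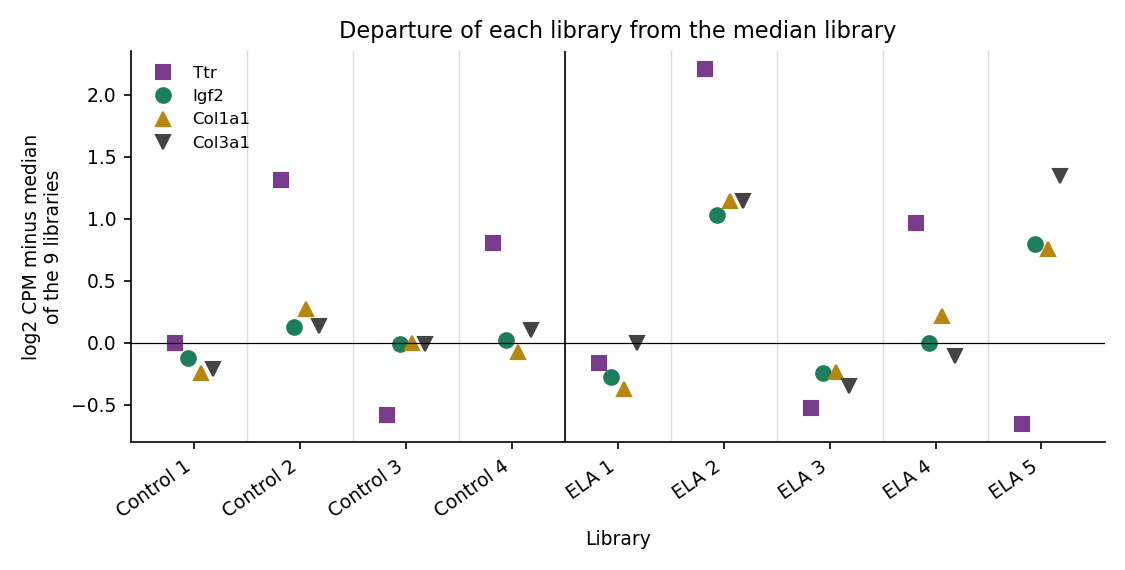
Departure of each library from the median of the 9 libraries in log2 CPM (vertical axis) for the 4 transcripts, by library (horizontal axis, controls left of the black line). In ELA replicate 2 all 4 are raised, and in ELA replicate 5 Igf2, Col1a1 and Col3a1 are raised while Ttr is at -0.66.

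Read library by library, the transcripts gave several kinds of sample. ELA replicate 2 was high in everything, at 4.65 times the median of the other 7 libraries (ELA replicate 5 aside) for Ttr, 2.06 times for Igf2, 2.34 times for Col1a1 and 2.25 times for Col3a1. ELA replicate 5 was high in the meningeal genes alone, at 1.75 times that median for Igf2, 1.79 times for Col1a1 and 2.57 times for Col3a1, with Ttr at 0.631 times. Control replicates 2 and 4 and ELA replicate 4 carried raised Ttr, at 1.75 to 2.49 times the median of all 9 libraries, with summed Igf2, Col1a1 and Col3a1 at 1.00 to 1.11 times. Control replicate 3 and ELA replicate 3 were low in Ttr, at 0.667 and 0.692 times the median, with summed meningeal genes at 0.987 and 0.829 times. Control replicate 1 and ELA replicate 1 were near the median in Ttr, at 1.00 and 0.891 times, with summed meningeal genes at 0.886 and 0.832 times. Rats of both groups thus occurred among high-Ttr and low-Ttr libraries, while both libraries with raised collagens were from ELA rats. Whether the groups differ in this spread was not tested. How much choroid plexus or meninges was taken along with each hippocampus is not recorded in the labels, and its part in these levels was not tested.

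The ratio between transcripts within a library, which no scaling factor can change, separated the 2 patterns further. Reads of Igf2 per read of Col1a1 ranged from 2.42 to 3.06 over the 9 libraries, a 1.27-fold range, although Igf2 itself varied 2.48-fold and Col1a1 2.89-fold. Igf2 per Col3a1 ranged 1.58-fold, with the lowest value, 2.84, in ELA replicate 5 and the highest, 4.50, in ELA replicate 3. Col1a1 per Col3a1 ranged 1.89-fold and was also lowest in ELA replicate 5, at 0.986, where 8 other libraries had 1.14 to 1.86. That library thus had more Col3a1 for its Igf2 and Col1a1 than any other. Ttr per Igf2 ranged 6.28-fold, with 0.232 in ELA replicate 5 and up to 1.46 in control replicate 2 and ELA replicate 2. In each of these ratios control and ELA rats overlapped.

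**Figure D4:**
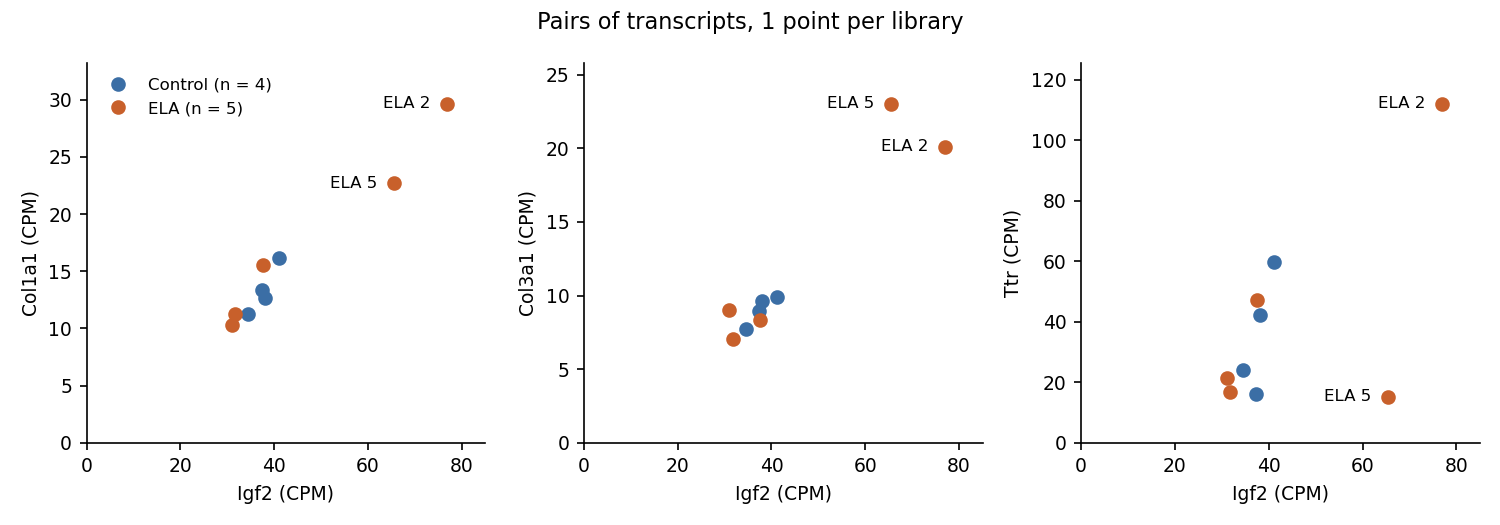
Igf2 in CPM (horizontal axes) against Col1a1, Col3a1 and Ttr in CPM (vertical axes), with 1 point per library, blue for control and orange for ELA. ELA replicates 2 and 5 lie above the other 7 libraries for Igf2 and the collagens, and at opposite ends of the Ttr range.

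Correlations between all pairs of the 5 members were planned over all 9 libraries, but without pooling where libraries form separate clusters. Col1a2 had no reads, which left 6 pairs, and p-values were adjusted over these 6. The pooled values are given first, although ELA replicates 2 and 5 were taken as such a cluster. Pooled over the 9, Igf2 with Col1a1 had r = 0.974 and rho = 0.933, with adjusted p-values of 0.000215 and 0.0045 by exact permutation. Igf2 with Col3a1 had r = 0.953 and rho = 0.8 (adjusted p = 0.0116 and 0.0415, exact permutation). Col1a1 with Col3a1 had r = 0.888, which passed (adjusted p = 0.0145, exact permutation), and rho = 0.7, which did not (adjusted p = 0.0865). No pair with Ttr passed (r from 0.257 to 0.541). ELA replicates 2 and 5 lay above the other 7 libraries for Igf2 and the collagens. Whether they form a separate cluster was not tested. For Col1a1 the gap was from 22.7 CPM in ELA replicate 5 to 16.2 CPM in the highest of the 7. The pooled p-values do not separate such a gap from shared variation among the other rats. The 6 pairs were therefore also computed over the other 7 libraries, a choice made after the values had been seen. Igf2 and Col1a1 again followed each other most closely. Their Pearson's r was 0.896 (p = 0.00913, or 0.0548 adjusted) and their Spearman's rho 0.857 (p = 0.0238, or 0.143 adjusted), all by exact permutation. With the 2 libraries most distant from the median Igf2 removed, r was 0.832. For Igf2 with Col3a1 the exact permutation test gave p = 0.119 at r = 0.643 and p = 0.167 at rho = 0.607. For Col1a1 with Col3a1 it gave p = 0.302 at r = 0.454 and p = 0.396 at rho = 0.393. With the 2 most distant libraries removed, r was 0.886 and 0.494 for these pairs. Over the 7 libraries no pair passed after adjustment over the 6. Col1a1 with Col3a1 had r = 0.212 without control replicate 2 and 0.667 without ELA replicate 1, and Igf2 with Col3a1 had 0.946 without ELA replicate 1, where it passed (adjusted p = 0.0167, exact permutation).

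The relation of Ttr to the meningeal transcripts did not pass after adjustment either. Within the same 7 libraries, Ttr with Igf2 had r = 0.731 and rho = 0.714, with p-values of 0.0738 and 0.0881 by exact permutation. With Col1a1 it had r = 0.730 and rho = 0.536 (exact permutation, p = 0.0776 and 0.236), and with Col3a1 r = 0.581 and rho = 0.5 (exact permutation, p = 0.178 and 0.267). After adjustment over the 6 pairs the smallest of these was 0.155. Over the 7 libraries, the values with Igf2 and Col1a1 rested on control replicate 2 and ELA replicate 4, the libraries most distant from the median of Ttr, without which r was 0.455 and 0.129. The value with Col3a1 was then 0.553. ELA replicate 5, outside this set, combined the lowest Ttr with the second highest Igf2.

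Among all genes tested, Igf2 and Col1a1 were closest to each other. Over the 9 libraries Col1a1 ranked 1 of 14462 genes by Pearson's r with Igf2, and Igf2 ranked 1 with Col1a1. Col3a1 ranked 6 with Igf2. Over the other 7 libraries, without ELA replicates 2 and 5, the places were 179, 201 and 2188. Igf2 with Col1a1 then had r = 0.896. With Igf2, 165 genes had r over 0.9 over the 7 libraries, against 22 over the 9. Places over 9 and over 7 libraries are therefore not alike in meaning. The part of ELA replicates 2 and 5 in these ranks was not tested. Over the 9 libraries Ttr had Col1a1 at place 546, Igf2 at place 1065 and Col3a1 at place 2897. These places changed with single libraries. Without ELA replicate 2 they were 6472, 8604 and 10131 (r = 0.076, -0.113 and -0.237), and without ELA replicate 5 they were 36, 69 and 106 (r = 0.863, 0.834 and 0.801). A correlation of over 0.9 across the 9 libraries was found for 5 of 14462 genes with Ttr and for 22 with Igf2. One under -0.9 was found for 0 genes with Ttr and for 11 with Igf2. How many genes would reach these bounds without any relation was not computed.

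The gene closest to Ttr was ENSRNOG00000001820, with r = 0.954 over 9 libraries and 0.925 over the 7. It had a log2 fold change of 0.03 between rearing groups (edgeR adjusted p = 0.960). After Col1a1, the gene closest to Igf2 was ENSRNOG00000023764, with r = 0.973 over 9 libraries but 0.624 over the 7. At the other end were ENSRNOG00000024455 for Ttr (r = -0.895) and ENSRNOG00000009970 for Igf2 (r = -0.925, and -0.310 over the 7). These identifiers come without symbols in the files and tables used.

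Genes in which the same libraries stood apart were counted. In 12 of 14463 genes (0.083%), ELA replicates 2 and 5 were both at least 1.5-fold above the highest of the other 7 libraries. Igf2 and Col3a1 were among them. Both the libraries and the bound were chosen after the values of these members had been seen, so their place in this count is no support. Other pairs of libraries were not counted. Col1a1 fell short of this bound, at 22.7 CPM in ELA replicate 5 against 16.2 CPM in the highest of the 7. In 1 gene both libraries were as far below the others. ELA replicate 2 alone, likewise chosen after its values had been seen, was at least 1.5-fold above the highest of the other 8 in 24 genes (0.166%). Ttr was among them.

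**Figure D5:**
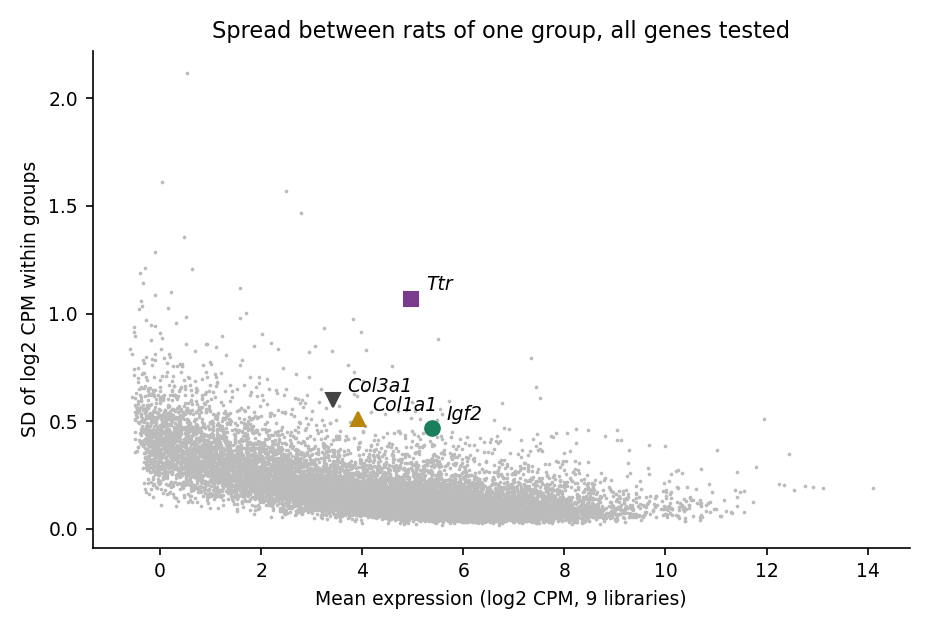
SD of log2 CPM within rearing groups (vertical axis) against mean log2 CPM (horizontal axis) for the 14463 genes tested, with 1 grey point per gene and the 4 transcripts marked. All 4 lie at the upper edge of the genes of like expression, with Ttr the highest at 1.07.

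By an SD within groups pooled over both groups, the 4 transcripts were among the least stable genes of like expression. The SD of log2 CPM within groups was 1.07 for Ttr, 0.47 for Igf2, 0.51 for Col1a1 and 0.60 for Col3a1, compared with a median of 0.15 over all genes tested. Among the 1000 genes nearest in mean expression, 0 had a larger SD than Ttr, 3 than Col3a1, 5 than Igf2 and 9 than Col1a1. The biological coefficient of variation in the edgeR fit was 65.1% for Ttr, 28.0% for Igf2, 30.3% for Col1a1 and 35.5% for Col3a1, against a median of 8.93%. Ttr was unstable in both groups, with an SD of 0.84 among control and 1.21 among ELA rats. The other transcripts spread mostly among ELA rats. Igf2 had 0.10 among control and 0.61 among ELA rats, Col1a1 0.21 and 0.65, and Col3a1 0.16 and 0.78. No SD among control rats alone was computed for all genes, so these control values were not set against other genes. Without ELA replicate 2 the SD within groups was 0.79 for Ttr, 0.36 for Igf2, 0.39 for Col1a1 and 0.55 for Col3a1. Without ELA replicate 5 it was 1.06, 0.44, 0.51 and 0.48.

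Depth, composition and read assignment of ELA replicates 2 and 5 were set beside these levels. Both had a low TMM factor, 0.980 and 0.975, against 0.996 to 1.02 in the other 7 libraries. ELA replicate 2 had 14535835 gene reads and 18.4% of records aligned to several places, inside the range of the other libraries. ELA replicate 5 had 12347264 gene reads, the lowest share of records outside annotated genes (15.2%) and the highest share aligned to several places (21.1%). With total counts as the only scaling, so with no TMM factor, the log2 fold changes of Igf2, Col1a1 and Col3a1 were 0.34, 0.40 and 0.55. The part of depth and read assignment in the raised levels was not tested. Over the 9 libraries, Ttr had r = -0.106 with gene reads (exact permutation p = 0.787) and r = 0.0613 with the leading principal component of the 500 most variable other genes (exact permutation p = 0.876). Spearman's rank correlation was 0 for both (p = 1 by exact permutation). With the 2 most distant libraries removed, r was 0.322 and -0.264. For the share of records outside annotated genes r was 0.200 and rho -0.05 (exact permutation p = 0.622 and 0.912), and for the share aligned to several places r was -0.0464 and rho 0.0167 (exact permutation p = 0.907 and 0.982). These values of r moved to -0.652 and 0.595 with the 2 most distant libraries removed. None of these 4 relations passed over the 9 libraries, the smallest p after adjustment being 0.907 by exact permutation.

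The comparison of all genes was also fitted with these transcripts as covariates. With log2 CPM of Ttr in the model, 5 other genes were called between rearing groups (edgeR), against 6 without it. With the mean log2 CPM of Igf2, Col1a1 and Col3a1 in the model, 4 were called. Whether these were the same genes was not examined. With 1 library left out and no covariate, the count ran from 2 to 130. How far tissue taken along with the hippocampus bears on the calls cannot be read from these counts.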

How the data were processed

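The deposited values are raw counts, 1 file for each rat. Per the submitters' processing notes, the authors used STAR 2.5.0, HTSeq 0.6.1 and the rn6 build to make these counts. Which annotation release, strand setting or read filter was used is not given in the sources used here. The 5 summary entries of each file, which name no gene, were left out. The gene table used here, of another assembly, holds no Ensembl identifiers, so lists of other markers, collagens and IGF genes could not be read.

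Counts were fitted in R 4.3.3 with edgeR 4.0.16 (filterByExpr, TMM, robust quasi-likelihood test, Benjamini-Hochberg over 14463 genes, call under 0.05) over all 9 libraries. Log2 CPM used a prior count of 2. Depth was 11049282 to 17089188 gene reads. Correlations were tested by exact permutation in Python 3.11.15, and the edgeR fit was checked on simulated counts. Alternatives used DESeq2 1.42.0, limma 3.58.1, other scalings and filters, blocks by number and single libraries left out.

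The members and lists were chosen with earlier results of these data known. All members are named. Other genes are named as the closest and the most opposed to Ttr and Igf2 by Pearson's r, excluding members. Standard errors are the absolute log2 fold change over the square root of F.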

Additional observations from a re-analysis of the deposited data

How the results depend on the processing

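The labels give no batch, litter or dissection record. Within groups of 4 and 5 rats, the spread between libraries was beyond counting error, with a chi-square per degree of freedom of 30.5 to 378. With 1 library per rat, differences between animals, dissections and library preparations cannot be told apart. Scaling, filtering, robust estimation, DESeq2 and limma-voom left the sign of the log2 fold change of Ttr, Igf2, Col1a1 and Col3a1 as it was and called none of them. Limma-voom with sample weights lowered the values to 0.03, 0.21, 0.21 and 0.33. With 1 library left out the edgeR log2 fold change ran from -0.52 to 0.63 for Ttr (below 0 only without ELA replicate 2), 0.13 to 0.49 for Igf2, 0.14 to 0.57 for Col1a1 and 0.30 to 0.73 for Col3a1. Without both ELA replicates 2 and 5 the values were -0.35, -0.18, -0.13 and -0.16. The plain difference of mean log2 CPM was -0.018 for Ttr.

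The number of genes called between groups was 6 of all genes tested, 11 with no filter, 143 by the DESeq2 Wald test, 305 by limma-voom with sample weights, 3 without both ELA replicates 2 and 5, and 2 to 130 with 1 library left out (130 without control replicate 1). A block by title number gave 1 call and a block by description number 78. The meaning of these numbers is not stated. Deviations of same-numbered rats had r from -0.129 to 0.241 by title and -0.173 to 0.244 by description. The same-numbered ELA rat had the highest r only for title number 4 and description number 5. No member was called with either block. Title-number blocks gave log2 fold changes of 0.28 for Ttr, 0.14 for Igf2, 0.23 for Col1a1 and 0.21 for Col3a1.

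Pooled over all 9 libraries, which joins libraries taken as separate clusters, r was 0.974 for Igf2 with Col1a1 and 0.953 for Igf2 with Col3a1. For Col1a1 with Col3a1 it was 0.888. Each was past adjustment (rho 0.7 of the last was not, exact permutation adjusted p = 0.0865). None passed over the 7 libraries chosen after the values had been seen. Over those 7 with 1 more left out, r ran from 0.577 to 0.957 for Ttr with Igf2, 0.571 to 0.904 for Ttr with Col1a1, 0.398 to 0.750 for Ttr with Col3a1, 0.837 to 0.936 for Igf2 with Col1a1, 0.461 to 0.946 for Igf2 with Col3a1 and 0.212 to 0.667 for Col1a1 with Col3a1. The cause of these changes was not tested.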
